A study of Homo sapiens with 4 samples.

Results

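The 10 alpha- and beta-tubulin isotypes TUBA1A, TUBA1B, TUBA1C, TUBA4A, TUBB, TUBB2A, TUBB2B, TUBB3, TUBB4B and TUBB6 were read out by gene symbol from 18134 genes measured in PC9 cells. All 10 were in the table, and all 10 passed the filter on low counts that left 14048 genes to test. PC9 is an established human lung adenocarcinoma (LUAD) cell line. The shTPX2 group carried a stable lentiviral short hairpin against TPX2, and the shNC group carried a non-targeting hairpin from the same vector under the same puromycin selection. Each group had 2 polyadenylated RNA libraries of 1 shared batch, called shNC 1, shNC 2, shTPX2 1 and shTPX2 2. The hairpin is designed to lower TPX2 mRNA and does not delete the gene. Nothing in the labels says that the 2 libraries of a group came from separate cultures, so p-values measure the spread between these libraries, which may be technical.

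Microtubules are hollow polymers of alpha/beta-tubulin dimers, and the mitotic spindle is built from them. TPX2 is a spindle assembly factor that promotes microtubule nucleation and activates Aurora kinase A. Human cells make each tubulin from several genes, called isotypes, whose products differ mainly in their acidic C-terminal tails. Cells also tune tubulin mRNA to the pool of free dimer: when free tubulin is in excess, TTC5 binds the first residues of the nascent chain and, through SCAPER and the CCR4-NOT deadenylase, tubulin mRNAs are degraded. This is called tubulin autoregulation. TUBA1B, TUBA1C, TUBB and TUBB4B are the broadly expressed isotypes of dividing cells, whereas TUBA1A, TUBB2A, TUBB2B and TUBB3 are best known from neurons.

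Depth was close to even, with 20906441 to 21972583 expected counts per library, so the spread between libraries limited the comparison more than depth did for the abundant isotypes. Across genes, the least alike pair by chi-square was shNC 1 and shNC 2 (71.5 per gene, Pearson r of log2 CPM 0.972). The closest was shNC 1 and shTPX2 1 (38.96, r 0.983), so the shNC libraries differed from each other more than some libraries of different groups. By r the least alike pair was another, shNC 2 and shTPX2 2 (0.966). TPX2 itself measured 55.01 and 111.85 TPM (a transcript level corrected for length, with an equal total in each library) in shNC 1 and shNC 2. The shTPX2 libraries held 43.35 and 43.77 TPM, below both shNC libraries. The log2 fold change of TPX2 was −0.81 with all libraries and −0.25 without shNC 2. With all libraries the quasi-likelihood test of edgeR gave TPX2 an unadjusted p of 0.0403 and an adjusted p of 0.618. KRT8, KRT18, KRT19, EPCAM, CDH1 and EGFR, which mark epithelium, were expressed in all 4 libraries. The lung lineage markers NKX2-1 (0.04 to 1.55 TPM) and NAPSA (0.83 to 1.67 TPM) were nearly absent. The neuronal markers DCX, RBFOX3 and STMN2 were at 0.16 TPM or below, and the leukocyte marker PTPRC at 0.69 TPM or below. PECAM1, an endothelial marker, measured 4.2 to 14.37 TPM and COL1A1, a fibroblast collagen, 5.72 to 11.99 TPM, both highest in shNC 2.

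The sequences show how alike the isotypes are and where they part. The opening of the coding sequence is shown because its first codons encode the residues that tubulin autoregulation reads. All sequences of transcripts were read from GENCODE v29, build GRCh38. Among the 10 isotypes there were 6 different versions of the first 12 coding bases. TUBA1A, TUBA1B and TUBA1C shared one, TUBB and TUBB4B shared another, TUBB3 and TUBB6 a further one, and TUBA4A, TUBB2A and TUBB2B each had their own. Within the alpha isotypes, and within the beta isotypes, the versions differ only in synonymous codons. All alpha isotypes here encode Met-Arg-Glu-Cys first, and all beta isotypes Met-Arg-Glu-Ile. One gene is printed for each version, 5′ to 3′, over 30 bases with the first 12 in capitals.
TUBA1B opening: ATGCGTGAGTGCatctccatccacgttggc
TUBA4A opening: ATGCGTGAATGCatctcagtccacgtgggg
TUBB opening: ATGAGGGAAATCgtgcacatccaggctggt
TUBB6 opening: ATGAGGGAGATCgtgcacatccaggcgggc
TUBB2A opening: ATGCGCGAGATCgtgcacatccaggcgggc
TUBB2B opening: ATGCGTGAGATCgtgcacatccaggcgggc

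The closing 60 coding bases, up to and including the stop codon, are shown because they encode most of the C-terminal tail in which isotypes differ. Capitals mark the glutamate codons (GAG or GAA in frame), where glutamate chains are added to the finished protein. One alpha and 3 beta isotypes are printed. They held 7 glutamate codons in TUBA4A and TUBB6, 9 in TUBB and 10 in TUBB4B.
TUBA4A closing: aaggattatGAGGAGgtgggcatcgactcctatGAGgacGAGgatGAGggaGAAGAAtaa
TUBB closing: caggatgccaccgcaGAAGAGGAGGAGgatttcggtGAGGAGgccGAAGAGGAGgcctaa
TUBB4B closing: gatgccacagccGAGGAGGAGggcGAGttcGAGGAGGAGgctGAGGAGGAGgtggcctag
TUBB6 closing: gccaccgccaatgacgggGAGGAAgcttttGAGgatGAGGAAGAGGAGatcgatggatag
TUBA4A ends in a glutamate codon before the stop. TUBA1A and TUBA1B differed by 38 of their 1356 coding bases, an identity of 97.2%. TUBB2A and TUBB2B differed by 2 of the last 60 bases and were 98.1% identical over their coding sequences. The lowest identity between alpha isotypes was 84.4%, and between beta isotypes 80.9%.

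This likeness bears on how far reads can be assigned. Of all stretches of 150 bases in the chosen transcript of each isotype, 49.4% of those in TUBB2A and 39.4% of those in TUBB2B also occurred in another gene. The share was 19.1% in TUBA1B, 7.02% in TUBA1A, 6.77% in TUBA1C, 2.50% in TUBB and 0% in TUBA4A, TUBB4B and TUBB6. In TUBB3 it was 88.7%, nearly all shared with AC092143.1, a readthrough gene annotated over the same exons, and 2.22% with another isotype. How the counting treated such reads is not settled by the sources used here, so the values of TUBB2A, TUBB2B and TUBB3 are uncertain. The values of TUBA1A are uncertain as well, since 106 of its 1738 stretches also occurred in TUBA1B. TUBA1B had 15139.3 to 28037.4 expected counts per library, against 61.87 to 183.38 for TUBA1A. TUBA1A lies on chromosome 12 at 49184796 to 49189324 on the minus strand, and TUBA1C at 49188736 to 49274603 on the plus strand. Their annotated spans overlap by 589 bases, and the strand setting of the counting was not given in the sources used here. Whether exons of both genes lie in that overlap was not checked. The RefSeq promoters of TUBA1C begin at 49227676 or beyond, outside the overlap. TUBA1B lies nearby at 49127782 to 49131397 on the minus strand. TUBB2A (3153669 to 3157526) and TUBB2B (3224261 to 3231730) are minus-strand neighbours on chromosome 6, and TUBB lies on the same chromosome at 30720201 to 30725426 on the plus strand. The remaining isotypes are scattered, with TUBA4A at 219249711 to 219278170 of chromosome 2 (minus), TUBB4B at 137241213 to 137243707 of chromosome 9 (plus), TUBB3 at 89921392 to 89938761 of chromosome 16 (plus) and TUBB6 at 12307669 to 12344320 of chromosome 18 (plus). The chosen transcript of every isotype has 4 exons.

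In PC9 cells 4 isotypes carried most of the tubulin mRNA. TUBA1B, TUBB, TUBA1C and TUBB4B together made up 92.1% and 91.4% of the summed TPM of the 10 isotypes in shNC 1 and shNC 2. In shTPX2 1 and shTPX2 2 they made up 93.5% and 93.8%. TUBA4A followed, and the other 5 isotypes each stayed under 100 TPM. In this order of mean level, the ranges over the 4 libraries did not overlap at 3 steps. TUBB4B was 2.58 to 3.85 times TUBA4A in the same library, TUBA4A was 9.20 to 13.3 times TUBB3, and TUBA1A was 2.24 to 6.93 times TUBB2B. Neighbours at the other steps had overlapping ranges, although TUBA1B was above TUBB in all 4 libraries.

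**Figure D1:**
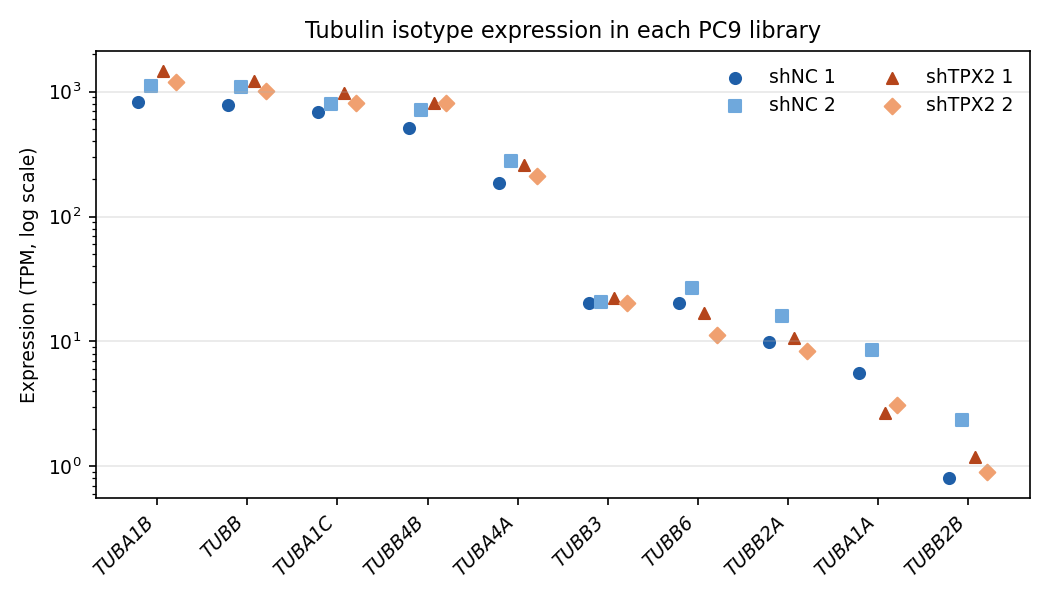
Level of each tubulin isotype in TPM (log axis), one point per library, with circles and squares for shNC and triangles and diamonds for shTPX2. The 4 leading isotypes lie at 510.55 TPM or above and the 5 least abundant at 26.54 TPM or below, and TUBA1A is the isotype whose shTPX2 points lie farthest below both shNC points.

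Among the abundant isotypes, TUBA1B, TUBA1C and TUBB4B were higher in both shTPX2 libraries than in either shNC library, and TUBB and TUBA4A overlapped between the groups on the TPM scale. TUBA1B, the main alpha isotype here, measured 832.77 and 1120.88 TPM in shNC 1 and shNC 2 and 1463.98 and 1193.48 TPM in shTPX2 1 and shTPX2 2. The lowest shTPX2 library thus lay just above the highest shNC library. Its log2 fold change was 0.57 (SE 0.229), a fold of 1.49 with a 95% interval of 1.01 to 2.18. The unadjusted p was 0.0443 and the adjusted p 0.620 with the quasi-likelihood test of edgeR, adjusted by Benjamini-Hochberg over all tested genes.

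TUBB4B, a broadly expressed beta isotype, measured 510.55 and 717.9 TPM in the shNC libraries and 814.68 and 813.3 TPM in the shTPX2 libraries. The shTPX2 libraries were nearly equal, and shNC 1 was the low one. The fold change of TUBB4B was 0.53 in log2 (SE 0.213; edgeR unadjusted p = 0.0441, adjusted p = 0.620). TUBA1C, the third alpha isotype of the chromosome 12 cluster, measured 688.86 and 804.1 TPM in the shNC libraries and 970.97 and 809.34 TPM in the shTPX2 libraries. Here shNC 2 and shTPX2 2 were almost at the same level. The log2 fold change of TUBA1C was 0.38 (SE 0.199; edgeR unadjusted p = 0.102, adjusted p = 0.689).

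TUBB, the class I beta-tubulin present in most cell types, measured 784.24 and 1089.39 TPM in the shNC libraries and 1210.09 and 1015.65 TPM in the shTPX2 libraries, with shNC 2 above shTPX2 2. Its log2 fold change was 0.38 (SE 0.234; edgeR unadjusted p = 0.155, adjusted p = 0.736). TUBA4A, the alpha isotype encoded without the terminal tyrosine, measured 185.54 and 277.78 TPM in the shNC libraries and 257.88 and 210.98 TPM in the shTPX2 libraries. Both shTPX2 values lay between the shNC values, and the log2 fold change was 0.16 (SE 0.234; edgeR adjusted p = 0.893). In all 4 of the leading isotypes the lowest library was shNC 1.

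The weakly expressed isotypes leaned the other way, except TUBB3. TUBA1A, an alpha isotype of the developing brain, measured 5.61 and 8.5 TPM in shNC 1 and shNC 2 and 2.66 and 3.07 TPM in shTPX2 1 and shTPX2 2. These levels rested on 122.34 and 183.38 expected counts in the shNC libraries and 61.87 and 73.79 in the shTPX2 libraries. Both shTPX2 libraries were well below both shNC libraries. The log2 fold change of TUBA1A was −1.09 (SE 0.351), a fold of 0.47 with a 95% interval of 0.262 to 0.846. Its edgeR unadjusted p of 0.0195 was the smallest among the isotypes, its adjusted p was 0.579, and 3.27% of all tested genes had a smaller p.

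TUBB6, the class V beta-tubulin, measured 20.33 and 26.54 TPM in the shNC libraries and 16.75 and 11.29 TPM in the shTPX2 libraries, so the groups did not overlap. TUBB6 had a log2 fold change of −0.54 (SE 0.296; edgeR unadjusted p = 0.116, adjusted p = 0.702). TUBB2A, a beta isotype of neurons, measured 9.92 and 16.0 TPM in the shNC libraries and 10.64 and 8.35 TPM in the shTPX2 libraries. The groups overlapped, and the log2 fold change was −0.31 (SE 0.324; edgeR adjusted p = 0.836).

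TUBB3, the class III beta-tubulin used as a marker of neurons, measured 20.17 and 20.82 TPM in the shNC libraries and 22.22 and 20.37 TPM in the shTPX2 libraries. The 4 values ran from 20.17 to 22.22 TPM, and the log2 fold change was 0.18 (SE 0.202; 95% interval of the fold 0.808 to 1.59; edgeR adjusted p = 0.852). TUBB2B, the near-copy of TUBB2A, measured 0.81 and 2.36 TPM in the shNC libraries and 1.19 and 0.9 TPM in the shTPX2 libraries. It rested on 16.95 to 49.06 expected counts per library, and its interval of 0.267 to 1.95 in fold left both directions possible (edgeR adjusted p = 0.869).

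**Figure D2:**
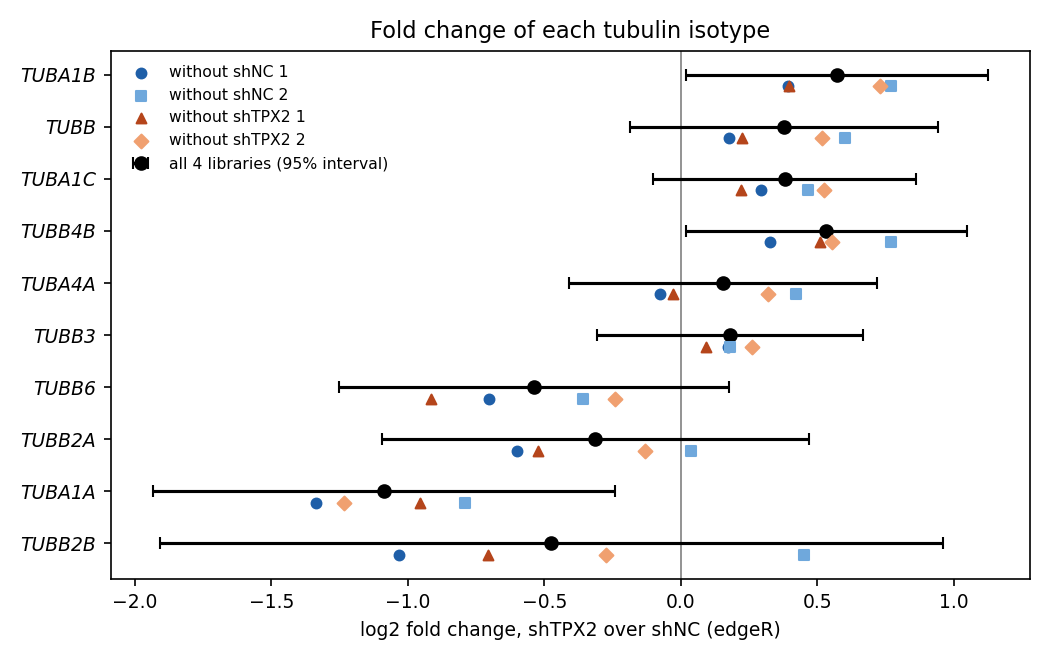
Log2 fold change of each isotype, shTPX2 over shNC, from edgeR: black points with 95% intervals use all 4 libraries, and coloured points leave out the named library. The intervals of TUBA1B, TUBB4B and TUBA1A do not reach 0, and TUBA4A, TUBB2A and TUBB2B change sign when a library is left out.

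Counted over the isotypes, 6 had a positive and 4 a negative fold change, with a median log2 fold change of 0.17 against −0.0085 over all tested genes. At an edgeR adjusted p under 0.05, 0 of the 10 isotypes were called, beside 0% of all tested genes. DESeq2 called 0 isotypes at the same threshold, with adjusted p-values from 0.371 to 0.999, and 111 genes in all. At an unadjusted edgeR p under 0.05 there were 2 higher isotypes, TUBA1B and TUBB4B, and 1 lower, TUBA1A, beside 3.13% of all tested genes higher and 4.9% lower. The study's criteria for differentially expressed genes (DEGs) are a limma voom p of at most 0.1 and a log fold change of at least 0.3. The paper states neither the base nor an adjustment. They were applied here to the unadjusted p and the log2 fold change, either way. The DEG criteria were met by 3 higher isotypes (TUBA1B, TUBA1C and TUBB4B) and 1 lower isotype (TUBA1A). Over all tested genes 6.24% met them as higher and 7.99% as lower. With scaling by library size only, that split was 578 higher and 1445 lower genes in place of 876 and 1122, and the isotypes that met the criteria were TUBA1B, TUBB4B, TUBB6 and TUBA1A.

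On the TPM scale the groups did not overlap for 3 higher isotypes (TUBA1B, TUBA1C, TUBB4B), beside 10.7% of all tested genes, and for 2 lower ones (TUBB6, TUBA1A), beside 30.3%. On CPM (counts scaled to library size, without length) with the TMM (trimmed mean of M-values) factors of edgeR, TUBB and TUBB3 joined the higher ones, giving 5 higher beside 19.4% of all tested genes and 2 lower beside 20.2%. The median log2 fold change of all tested genes was −0.0989 on the log2(TPM + 1) scale and −0.0085 with TMM.

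The isotypes that met the DEG criteria depended on the library left out. Without shNC 1 they were TUBB6, TUBB2A, TUBA1A and TUBB2B, and none of the abundant isotypes was among them. Without shTPX2 1 only TUBB6 met them. Without shNC 2 they were TUBA1B, TUBB, TUBA1C, TUBB4B and TUBA1A, and without shTPX2 2 they were TUBA1B, TUBA1C, TUBB4B and TUBA1A. In the edgeR fits without 1 library, the log2 fold change of TUBA1B ranged from 0.39 to 0.77, that of TUBB4B from 0.33 to 0.77 and that of TUBA1A from −1.34 to −0.79.

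**Figure D3:**
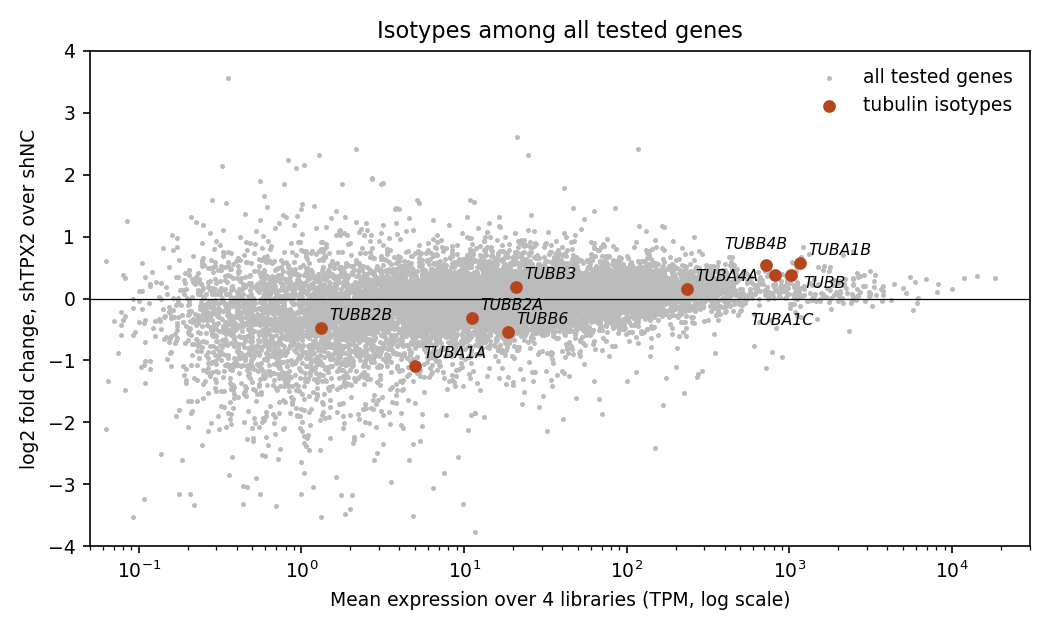
Log2 fold change (edgeR, shTPX2 over shNC) against mean level in TPM (log axis) for all tested genes in grey and the 10 isotypes in red; 6 genes lie outside the plotted range. The abundant isotypes lie on the positive side, TUBA1A, TUBB6, TUBB2A and TUBB2B on the negative side, and the most abundant genes as a whole lean to the positive side.

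Direction and level went together beyond the tubulins. Of the 257 tested genes with a mean of at least 500 TPM, 208 had a positive fold change, with a median of 0.14 on the log2 scale. Of these genes 10.9% met the DEG criteria as higher. On the TPM scale their groups did not overlap for 19.8% as higher and 9.73% as lower. TUBA1B, TUBA1C and TUBB4B, which were higher without overlap, are above that level. Of the 12390 tested genes with a mean under 100 TPM, 5632 had a positive fold change, with a median of −0.034. These level limits were chosen after the values were seen. The part of level in the isotypes' directions was not tested.

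The summed level of the 10 isotypes was 3058.8 and 4084.27 TPM in shNC 1 and shNC 2, against 4771.06 and 4086.73 TPM in shTPX2 1 and shTPX2 2. The shNC 2 and shTPX2 2 libraries were practically level, shNC 1 was the low one and shTPX2 1 the high one. Group means were 3572 ± 725 TPM (SD, n = 2) for shNC and 4429 ± 484 TPM (SD, n = 2) for shTPX2, a ratio of 1.24. An exact two-sided permutation test of 2 libraries against 2 cannot go below p = 0.33, so sums and shares are given as descriptions. In log2 terms the difference was 0.31 with all libraries, 0.12 without shNC 1, 0.19 without shTPX2 1, 0.42 without shTPX2 2 and 0.53 without shNC 2. Summed as CPM it was 0.43.

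The balance of alpha to beta differed less between the groups than within them. The 4 alpha isotypes made up 56.0% and 54.1% of the summed TPM in shNC 1 and shNC 2 and 56.5% and 54.2% in shTPX2 1 and shTPX2 2. The difference of the mean shares was 0.303 percentage points, with SDs of 1.31 and 1.59 points. Libraries with the same number were alike in this share.

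**Figure D4:**
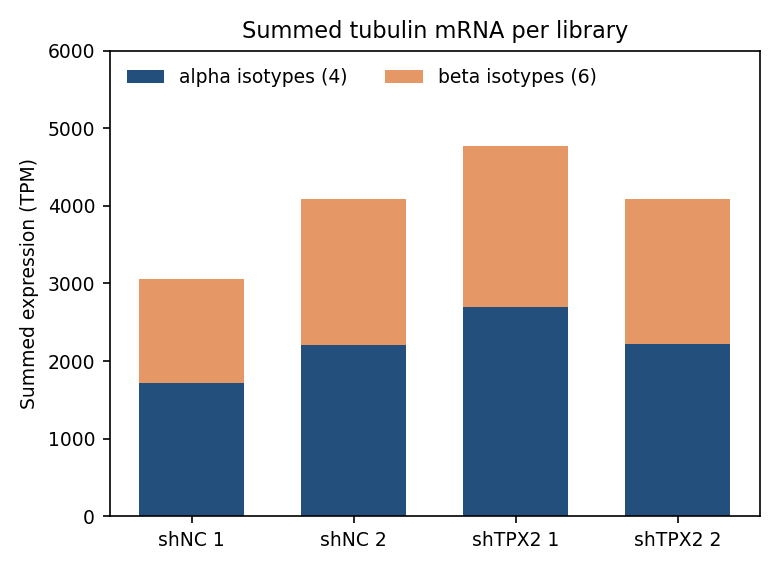
Summed TPM of the 4 alpha isotypes (blue) and the 6 beta isotypes (orange) in each library, stacked from 0. The bars of shNC 2 and shTPX2 2 reach almost the same height, at 4084.27 and 4086.73 TPM, with shNC 1 below and shTPX2 1 above them.

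A share is relative to the pool, most of which came from the 4 leading isotypes. Their summed TPM had group means of 3274 in shNC and 4146 in shTPX2. An isotype at a steady TPM therefore has a lower share where the pool is higher. TUBB3, at 20.17 to 22.22 TPM, made up 0.659% and 0.510% in the shNC libraries and 0.466% and 0.498% in the shTPX2 libraries. The share of TUBA1B was 27.2% and 27.4% in shNC 1 and shNC 2 and 30.7% and 29.2% in shTPX2 1 and shTPX2 2, the single isotype whose share was higher in both shTPX2 libraries. Of the alpha pool alone, TUBA1B took 48.6% and 50.7% in the shNC libraries and 54.3% and 53.8% in the shTPX2 libraries. The shares of TUBA1C and TUBB4B overlapped between the groups. TUBB4B made up 16.7% and 17.6% in the shNC libraries and 17.1% and 19.9% in the shTPX2 libraries.

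The other 7 isotypes had lower shares in both shTPX2 libraries. A share of this pool exists only for the isotypes, so no rate over all tested genes stands beside that count. On the TPM scale only TUBB6 and TUBA1A of these were lower without overlap, beside 30.3% of all tested genes. TUBB, TUBA4A and TUBB3 had lower shares although their edgeR log2 fold changes on TMM-scaled counts were positive (0.38, 0.16 and 0.18). Shares rest on TPM, and on the log2(TPM + 1) scale these fold changes were 0.26, 0.039 and 0.052. For TUBB the difference in share was small, with 25.6% and 26.7% in the shNC libraries and 25.4% and 24.9% in the shTPX2 libraries. TUBA4A made up 6.07% and 6.80%, against 5.41% and 5.16%. TUBB6 made up 0.665% and 0.650% of the pool in the shNC libraries and 0.351% and 0.276% in the shTPX2 libraries, with shNC values that nearly coincide. TUBA1A made up 0.183% and 0.208% in the shNC libraries and 0.0558% and 0.0751% in the shTPX2 libraries. TUBA1B transcripts outnumbered TUBA1A transcripts 148 and 132 times in shNC 1 and shNC 2, and 550 and 389 times in shTPX2 1 and shTPX2 2.

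Together the 5 isotypes under 100 TPM were close between the libraries of a group, at 1.86% and 1.82% of the pool in the shNC libraries and 1.12% and 1.08% in the shTPX2 libraries. Their summed level was 56.84 and 74.22 TPM in shNC 1 and shNC 2 and 53.46 and 43.98 TPM in shTPX2 1 and shTPX2 2. The shares of a library add up to the whole, so they are not independent of each other.

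**Figure D5:**
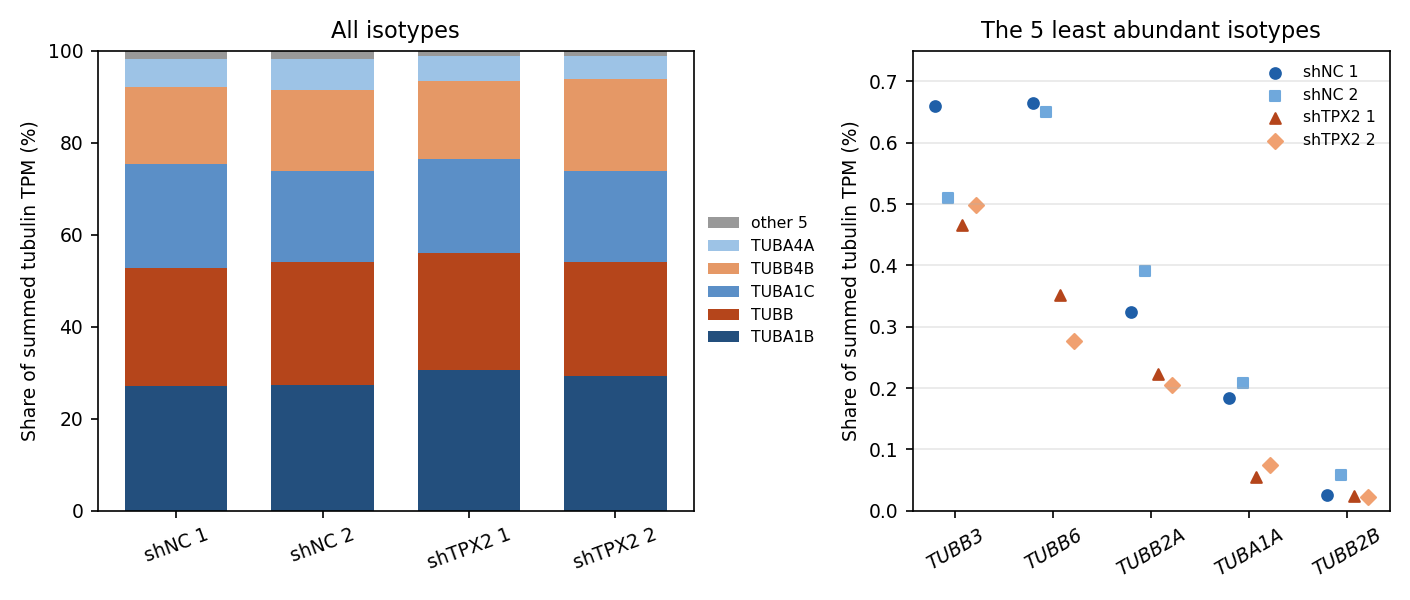
Share of each isotype in the summed tubulin TPM of a library, in percent: stacked bars for all isotypes on the left, and points for the 5 least abundant isotypes on the right (circles and squares shNC, triangles and diamonds shTPX2). The 4 leading isotypes fill over 91% of every bar, and the TUBB6 and TUBA1A points of shTPX2 lie apart from those of shNC.

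Promoters are shown for TUBB4B and TUBA1A, isotypes that met the DEG criteria in opposite directions. CCAAT boxes are bound by NF-Y and are common in promoters of cell cycle genes. RefSeq (GRCh38.p14) gave 15 promoters for the 10 isotypes, each from 250 bases before to 50 after a start site. CCAAT, on either strand, was in 9 of the 15, from 7 genes, and in 34.6% of all 35116 promoters of the same length. The 9 include overlapping TUBA1C promoters that hold the same CCAAT, 104 and 197 bases before their start sites, so that site counts more than once. TUBB4B had 3 matches, starting 232, 166 and 103 bases before the start site, TUBA1A had 2, at 125 and 88 bases, and the TUBA1B window had 0. TTTGAA, on either strand, was in 4 of the 15 (TUBA1C and TUBB4B) and in 15.2% of all promoters. CACGTG, a palindrome, was in 2 of the 15 (TUBA1C and TUBB) and in 7.26% of all. The searched motifs were not required to be free of overlap with each other. A match describes letters and not binding. The 250 bases before the start site are printed 5′ to 3′ in the direction of the gene, with CCAAT and its reverse complement ATTGG in capitals, for TUBB4B at chr9:137241037-137241286 (plus strand) and TUBA1A at chr12:49189081-49189330 (minus strand).
TUBB4B: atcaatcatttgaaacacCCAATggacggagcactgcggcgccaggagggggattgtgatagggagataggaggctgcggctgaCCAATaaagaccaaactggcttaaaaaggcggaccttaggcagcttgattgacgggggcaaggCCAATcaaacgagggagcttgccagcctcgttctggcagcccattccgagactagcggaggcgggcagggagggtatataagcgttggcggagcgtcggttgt
TUBA1A: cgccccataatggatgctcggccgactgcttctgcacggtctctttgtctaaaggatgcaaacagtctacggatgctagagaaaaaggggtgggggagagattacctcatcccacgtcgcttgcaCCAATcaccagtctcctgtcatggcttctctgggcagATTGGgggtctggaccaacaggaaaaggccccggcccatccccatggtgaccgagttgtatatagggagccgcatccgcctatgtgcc

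Most genes for tubulin folding had small positive fold changes, and few met the DEG criteria. Of 21 tested genes for the CCT chaperonin, prefoldin and the tubulin cofactors, 17 had a positive and 4 a negative fold change, with a median of 0.17 on the log2 scale against −0.0085 over all genes. For all tested genes with a mean of at least 500 TPM the median was 0.14. That set was not matched in level to the folding genes, of which CCT6A averaged 519 TPM, CCT7 279 and PFDN6 114. The part of level in the lean of the folding genes was not tested. On the TPM scale the groups did not overlap for 6 higher and 5 lower genes, beside 10.7% and 30.3% of all tested genes. The DEG criteria were met by 3 of the 21 as higher (CCT6A, CCT7 and PFDN6) and 1 as lower (TBCEL), beside 6.24% and 7.99% of all tested genes. CCT6A, a chaperonin subunit, measured 478.42 and 442.13 TPM in the shNC libraries and 587.13 and 569.3 TPM in the shTPX2 libraries. Its groups did not overlap, with a log2 fold change of 0.45 (SE 0.180; edgeR unadjusted p = 0.0437, adjusted p = 0.619). CCT7, another chaperonin subunit, measured 269.11 and 239.04 TPM under shNC against 320.28 and 287.03 TPM under shTPX2. PFDN6, a prefoldin subunit, measured 95.87 and 113.12 TPM under shNC against 118.5 and 127.48 TPM under shTPX2. CCT6A and CCT7 were higher in shNC 1 than in shNC 2, whereas the 4 leading isotypes were lowest in shNC 1.

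The genes of tubulin autoregulation split, with 8 of 13 tested genes positive, 5 negative and a median log2 fold change of 0.096. The DEG criteria were met by 2 of the 13 as higher, CNOT6 and CNOT9, and by 0 as lower, beside 6.24% and 7.99% of all tested genes. TTC5, the factor that recognizes nascent tubulin, measured 13.5 and 9.53 TPM in the shNC libraries and 11.79 and 10.83 TPM in the shTPX2 libraries, which lay between the shNC values (edgeR adjusted p = 0.953). SCAPER, which links TTC5 to the deadenylase, measured 4.5 and 6.65 TPM under shNC against 3.55 and 4.21 TPM under shTPX2. The SCAPER groups did not overlap, with a log2 fold change of −0.47 (SE 0.267; edgeR adjusted p = 0.710). CNOT6, a catalytic deadenylase subunit, measured 19.97 and 20.51 TPM under shNC against 22.86 and 23.34 TPM under shTPX2, a log2 fold change of 0.33 that met the DEG criteria. CNOT9, a further subunit of the complex, met them with a log2 fold change of 0.30. CNOT6L, a close relative of CNOT6, measured 5.89 and 6.28 TPM under shNC against 4.8 and 3.64 TPM under shTPX2 and did not meet them.

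Of the enzymes that modify tubulin, 11 of 23 tested genes were positive and 12 negative, with a median log2 fold change of −0.028. The DEG criteria were met by 1 as higher (TTLL12) and 1 as lower (VASH1), shares below the 6.24% and 7.99% of all tested genes. VASH1, a carboxypeptidase that removes the terminal tyrosine of alpha-tubulin, measured 4.69 and 5.8 TPM under shNC against 3.26 and 3.56 TPM under shTPX2. Its log2 fold change was −0.59 (SE 0.237; edgeR unadjusted p = 0.0436, adjusted p = 0.619), and it met the DEG criteria. TTLL12, of the tubulin tyrosine ligase-like family, met them as higher, at 79.59 and 84.3 TPM under shNC against 108.41 and 85.99 TPM under shTPX2. SIRT2, a tubulin deacetylase, measured 58.0 and 54.45 TPM under shNC against 56.46 and 74.62 TPM under shTPX2, with overlap.

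Of the genes of microtubule dynamics, 21 of 29 tested were negative and 8 positive, with a median log2 fold change of −0.13. On the TPM scale the groups did not overlap for 0 higher and 15 lower genes, beside 10.7% and 30.3% of all tested genes. The DEG criteria were met by 3 of the 29 as lower and 0 as higher, a share of lower genes near the 7.99% of all tested genes. These were MAP1B, MAP2 and MAP9, which encode microtubule-associated proteins. MAP2, best known from dendrites, measured 6.31 and 6.8 TPM under shNC against 3.47 and 1.69 TPM under shTPX2. For MAP2 the log2 fold change was −1.22 (SE 0.359; edgeR unadjusted p = 0.0133, adjusted p = 0.579). MAP1B, best known from axons, measured 30.66 and 46.08 TPM under shNC against 25.7 and 11.96 TPM under shTPX2. MAP9, which associates with the spindle, had 25 and 21 counts in shNC 1 and shNC 2 and 0 and 1 in shTPX2 1 and shTPX2 2. Against a floor of 3 counts in each shTPX2 library, MAP9 was at least 6.60-fold lower than in either shNC library.

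STMN1, which binds free tubulin dimers, measured 106.12 and 172.62 TPM under shNC against 144.38 and 147.16 TPM under shTPX2, with both shTPX2 values between the shNC values. MAP4, the main microtubule-associated protein of non-neuronal cells, measured 119.54 and 102.13 TPM under shNC against 104.57 and 82.63 TPM under shTPX2, with overlap (edgeR adjusted p = 0.900).

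Outside the 10 isotypes, 13 of 14 listed tubulin genes were in the table and 8 were tested, 3 positive and 5 negative. Of these 8, 1 met the DEG criteria as higher and 1 as lower, beside 6.24% and 7.99% of all tested genes. The further alpha and beta genes were rare: TUBA3C, TUBA3D, TUBA3E, TUBA4B, TUBA8, TUBAL3, TUBB1 and TUBB8 stayed at 1.77 TPM or below in every library. TUBAL3 measured 1.13 and 0.76 TPM under shNC against 0.36 and 0.74 TPM under shTPX2. TUBB4A, a beta isotype of the brain, measured 0.8 and 4.21 TPM under shNC against 0.28 and 0.73 TPM under shTPX2, and met the DEG criteria as lower. Its log2 fold change was −2.25 with all libraries (SE 0.880; edgeR adjusted p = 0.619) and −0.62 without shNC 2. TUBG1, the gamma-tubulin of the nucleating ring complex, measured 69.07 and 100.45 TPM under shNC against 108.09 and 110.97 TPM under shTPX2. It met the criteria as higher, with a log2 fold change of 0.50 (SE 0.208; edgeR unadjusted p = 0.0518, adjusted p = 0.626).

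The genes whose level over the 4 libraries ran most like the summed tubulin level were CDC7, AHCYL2 and LMNB2, among 8648 genes with a mean of at least 10 TPM. Likeness was the root-mean-square difference of mean-centred log2(TPM + 1), which was 0.018 for CDC7, 0.037 for AHCYL2 and 0.038 for LMNB2, and under 0.1 for 61 genes. CDC7, a kinase that starts DNA replication, measured 7.44 and 10.57 TPM under shNC against 12.12 and 10.49 TPM under shTPX2. Like the tubulin sum, it was lowest in shNC 1, highest in shTPX2 1 and level between shNC 2 and shTPX2 2. With 4 libraries such likeness is a description only.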

How the data were processed

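RNA-seq of PC9 cells was analysed in 4 libraries, 2 per group, grouped by the sample labels. The study's methods name SOAPnuke for read cleaning, HISAT2/Bowtie2 for alignment, and RSEM or StringTie for quantification, whereas the submitters' processing notes name HISAT2, featureCounts, DESeq2 and GRCh38; the annotation and strand setting were not given in the sources used here. The authors deposited expected counts per gene (42.2% to 44.6% per library not whole), and FPKM and TPM values scaled by transcript length and depth. Deposited group means were not used: they equalled the mean of the 2 libraries within 0.01 TPM in 7.65% (shNC) and 6.31% (shTPX2) of genes. FPKM values were not used here.

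Expected counts were rounded, filtered by filterByExpr (14048 of 18134 genes kept), scaled by TMM and tested in edgeR 4.0.16 (quasi-likelihood) in R 4.3.3, which shares the spread over genes (common dispersion 0.0485). The DEG criteria were applied with limma 3.58.1 after voom, and DESeq2 1.42.0 was an alternative. Exact permutation of sums and shares used scipy 1.17.1. Tests were checked on simulated counts, with fold changes larger than those of the isotypes. That check does not show the power of the tests for changes as small as those of the isotypes. Intervals cover the spread between libraries. No pair of libraries was a duplicate (chi-square per gene 38.96 to 71.5).

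The members, lists and tests were chosen with earlier results of these data known. Named genes were the isotypes, TPX2, the 3 genes of each list with the smallest edgeR p, the hub genes TTC5, SCAPER, STMN1 and MAP4, and the 3 genes most like the summed level. TBCEL and the weakly expressed further tubulins were named after their values were seen. Alternatives were other scalings, filters and tests, TPM pseudocounts of 1 and 0.1, a replicate block and leaving out each library. TUBB8B and TTLL13 were not analysed here, and the closing coding bases of some isotypes are not reported here.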

Additional observations from a re-analysis of the deposited data

How the results depend on the processing

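Of 605 alternative values, 560 stayed on the same side of their threshold and in the same direction, or near the value reported, 31 moved and 14 reversed. For fold changes the threshold was an adjusted p of 0.05, and 0 genes were under it with edgeR and all libraries. For them the label therefore mainly records direction, and a steady size was not required. For 7 of the 10 isotypes the direction of the fold change was kept under all 13 alternatives. Leaving out each library moved the genes called by edgeR from 0 to between 0 and 22 (22 without shNC 1, 11 without shNC 2), the genes meeting the DEG criteria from 1998 to between 1100 (without shTPX2 2) and 3345 (without shNC 1), the isotypes at an unadjusted edgeR p under 0.05 from 3 to between 1 and 3, and the isotypes meeting the DEG criteria from 4 to between 1 and 5. It gave log2 fold changes from −0.075 to 0.42 for TUBA4A, −0.60 to 0.036 for TUBB2A, −1.03 to 0.45 for TUBB2B, −0.16 to 0.39 for TTC5, −0.10 to 0.55 for STMN1 and −0.32 to 0.040 for MAP4. Without shNC 1 or shTPX2 1 TUBA4A reversed, at −0.075 and −0.028; without shNC 2 TUBB2A (0.036), TUBB2B (0.45) and TTC5 (−0.16) did; STMN1 (−0.10) and MAP4 (0.0061) did without shNC 1, and MAP4 (0.040) without shTPX2 2. The difference of the alpha share ranged from −0.822 to 1.43 percentage points (reversed at −0.624 without shNC 2 and −0.822 without shTPX2 1), that of the TUBA1C share from −2.44 to 0.390 (reversed without shNC 1) and that of the TUBB4B share from −0.0587 to 2.77 (reversed without shTPX2 2). With 1 library left in a group, that library is assumed to vary like the other group's. The Wald test of DESeq2 called 111 genes. With an adjusted p in the DEG criteria, 1 gene and 0 isotypes met them. With scaling by library size only, 1 isotype had an unadjusted p under 0.05. TTC5 was at −0.0065 with limma on log2(TPM + 1) and −0.0056 with a pseudocount of 0.1, where the median of all genes was −0.117. The causes were not tested.

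Libraries of the 2 groups share only a number: the deviations of same-numbered libraries from their group means correlated at 0.182 over genes. With the replicate block, edgeR called 0 genes, 2447 genes and 4 isotypes met the DEG criteria, 3 isotypes had an unadjusted p under 0.05, and the summed tubulin log2 difference was 0.32. Depth limits TUBB2B and TUBA1A, which rest on the lowest counts of the isotypes. With 2 libraries per group no permutation test could go below 0.33.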
